A study of Mus musculus with 24 samples.

Results

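Tuft cells are rare chemosensory cells of the gut epithelium, and 9 genes by which they are commonly recognised were followed here: *Dclk1*, *Lrmp*, *Trpm5*, *Pou2f3*, *Gfi1b*, *Il25*, *Avil*, *Alox5* and *Ptgs1*. They were chosen by name as tuft cell genes, with earlier results of these data known, and all 9 were found among the 53465 genes of the count table. The libraries came from Guca2a-Venus mice, whose BAC transgene places the fluorescent protein Venus under control of the *Guca2a* (guanylin) promoter, with the line descending from 1 founder on a background crossed towards C57Bl6J; every mouse carried the transgene and no other strain or treatment was compared. Epithelium of the duodenum, jejunum, ileum and colon was dissociated and sorted into Venus-positive and Venus-negative cells (named GFP positive and negative in the labels) after dead cells, debris and CD45-positive immune cells had been gated out, giving 3 RNA libraries in each of 8 groups. The design text speaks of 3 different mice, but no label ties a library to a mouse, so positive and negative cells were not paired; the age and sex of the mice are not given in the sources used here. Libraries are named below by group and by a replicate number that follows their listing. The labels give this number no other meaning, and whether it follows the mouse was not tested.

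Tuft cells sense luminal metabolites and parasites through a taste-like cascade, in which G protein-coupled receptors activate a phospholipase, calcium is released from stores and the cation channel TRPM5 opens. In the small intestine they are known as the epithelial source of the cytokine IL-25, which acts on group 2 innate lymphoid cells, and they also make eicosanoids and acetylcholine. Their development depends on the transcription factor POU2F3. The question put to the data was whether guanylin-expressing cells carry transcripts of these genes, and whether the answer depends on the stretch of gut.

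Each library held from 7458616 to 23063124 gene counts, and mitochondrial genes took 32.3% to 80.7% of them. That share moved with the sort in the small intestine, from 61.2% to 78.8% in negative libraries against 32.3% to 60.6% in positive libraries, but not in the colon (65.3% to 80.7% against 68.6% to 77.9%); its part in the results below was not tested. *Guca2a*, the check of the sort, was higher in positive cells of every region, from 6.26-fold in the jejunum to 54.0-fold in the duodenum (edgeR quasi-likelihood test, adjusted p at most 4.87e-06). The tuft cell genes were scarce throughout. *Dclk1* had 6 to 407 counts per library with a median of 70.5, *Trpm5* had a median of 57.5, *Lrmp* of 37.5, *Avil* of 36.5, *Pou2f3* of 11, *Alox5* of 10 and *Ptgs1* of 7. *Gfi1b* reached 12 counts at most and was at 0 in 13 libraries, and *Il25* was at 0 in all 24. Levels are given in CPM, the read count scaled to the TMM-adjusted library size. A gene with 3 counts, taken as the limit of detection, had 0.106 to 0.360 CPM depending on the library, a limit that covers counting error only. Of the 9 genes, 7 passed the filter on low counts and entered the test, together with 15044 genes in all.

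The genes lie on 7 chromosomes of GRCm38, where *Lrmp* and *Alox5* are both on chromosome 6 and *Gfi1b* and *Ptgs1* both on chromosome 2. *Dclk1* (chr3:55242364-55539068, plus strand), *Lrmp* (chr6:145115653-145174934, plus), *Trpm5* (chr7:143069153-143094642, minus), *Pou2f3* (chr9:43123939-43210369, minus) and *Avil* (chr10:127000709-127020994, plus) are protein-coding genes. Exons of some overlap those of a gene on the opposite strand, the longest overlaps being 220 bases of *Trpm5* with *Tssc4* and 165 bases of *Avil* with *Tsfm*. The strand setting of the counting is not given in the sources used here, so reads in those stretches cannot be assigned with certainty. Because several of the genes fell together, the RefSeq promoter windows of GRCm38.p6 (250 bases before to 50 after an annotated start) are shown for *Trpm5*, for both starts of *Dclk1* and for *Avil*, the 1 gene whose window held the motif searched for. The table held windows for 6 of the 9 genes and 7 windows in all. POU-domain factors of the POU2 class bind the octamer ATGCAAAT. Searched on both strands, the whole octamer was in none of the 7 windows and in 1.74% of all 32851 windows in the table. Without its last base, ATGCAAA, which every octamer also contains, was in 1 of the 7, that of *Avil*, against 4.63% of all windows. AAATCAC, the core bound by GFI1-type repressors, was in none of the 7 and in 3.2% of all. In the sequences, capitals mark ATGCAAA or its reverse complement TTTGCAT, whose first letters lie 15 and 115 bases before the *Avil* start, and a match or its absence is a description of these letters in these windows and not of binding.
Avil, chr10:127000459-127000758, plus strand: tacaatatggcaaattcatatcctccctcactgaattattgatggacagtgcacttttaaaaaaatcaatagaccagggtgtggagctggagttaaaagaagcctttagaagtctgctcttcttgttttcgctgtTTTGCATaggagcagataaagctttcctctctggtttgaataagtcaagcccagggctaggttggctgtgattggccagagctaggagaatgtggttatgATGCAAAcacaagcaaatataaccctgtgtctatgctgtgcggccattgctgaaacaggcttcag
Trpm5, chr7:143094593-143094892, minus strand: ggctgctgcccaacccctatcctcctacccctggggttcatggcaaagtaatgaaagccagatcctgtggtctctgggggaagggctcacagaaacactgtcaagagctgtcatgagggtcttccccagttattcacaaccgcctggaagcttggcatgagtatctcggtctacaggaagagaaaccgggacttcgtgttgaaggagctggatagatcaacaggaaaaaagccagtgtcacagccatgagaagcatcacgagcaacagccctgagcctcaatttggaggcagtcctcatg
Dclk1 upstream start, chr3:55242114-55242413, plus strand: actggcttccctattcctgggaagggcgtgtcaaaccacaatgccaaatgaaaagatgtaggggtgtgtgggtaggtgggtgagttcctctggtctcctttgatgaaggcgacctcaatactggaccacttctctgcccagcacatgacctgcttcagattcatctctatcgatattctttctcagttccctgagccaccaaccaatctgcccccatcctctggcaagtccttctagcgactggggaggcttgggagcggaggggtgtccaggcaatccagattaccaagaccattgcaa
Dclk1 downstream start, chr3:55461478-55461777, plus strand: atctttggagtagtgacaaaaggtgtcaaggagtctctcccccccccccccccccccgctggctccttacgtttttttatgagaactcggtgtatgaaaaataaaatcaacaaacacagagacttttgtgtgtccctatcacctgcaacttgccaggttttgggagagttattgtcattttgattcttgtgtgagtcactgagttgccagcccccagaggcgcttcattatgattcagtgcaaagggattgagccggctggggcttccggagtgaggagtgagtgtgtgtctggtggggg

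Averaged over the 4 regions, tuft cell genes were lower in the Venus-positive cells. Of the 7 genes tested, 6 fell and none rose (edgeR quasi-likelihood test, adjusted p under 0.05), where 32.9% of all genes tested fell and 25.0% rose. Where the mean of a group lay under the limit of 3 counts per library, the mean over regions is given with that group put at the limit. *Lrmp* was then 7.32-fold lower (adjusted p of the fit = 2.55e-07), *Trpm5* 5.28-fold (-2.40, SE 0.31, adjusted p = 9.88e-08) and *Dclk1* 5.26-fold (adjusted p = 3.69e-08). *Ptgs1* was 2.89-fold lower at the limit (adjusted p = 0.0100), but it reached 10 counts in 8 negative libraries and 1 positive library and so passed the filter through the group where it is higher, which leaves 5 of the other 6 as the count to read. *Avil* was 2.99-fold lower (SE 0.36 on the log2 scale, adjusted p = 0.000436). *Pou2f3* was lower with an adjusted p of 1.93e-06, and its mean log2 change was -2.88 at the limit, its jejunal positive group being at 0. *Alox5* had a log2 change of -1.11 (SE 0.54, adjusted p = 0.0805). The median log2 change over the 7 genes was -2.39 and that over all genes -0.21. The study itself displays *Dclk1*, *Lrmp* and *Trpm5* for these libraries and describes them as relatively depleted in positive cells. It also measured *Dclk1*, *Trpm5* and *Sox9* by RT-qPCR in sorted cells. The direction of *Dclk1*, *Lrmp* and *Trpm5* here is therefore not independent evidence. In bulk RNA from sorted cells, fewer tuft cells and less RNA per tuft cell cannot be told apart.

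By region, lower in positive cells were 3 (duodenum), 5 (jejunum), 5 (ileum) and 0 (colon) of the 7, against 8.08%, 25.6%, 20.6% and 3.80% of all genes tested in the same regions. The duodenal calls were *Dclk1*, *Lrmp* and *Trpm5* alone, the genes the study had displayed, so that count is not independent evidence. In the jejunum and ileum the calls were these genes with *Pou2f3* and *Avil*. None of the 7 was higher in any region, where 8.88%, 18.3%, 17.9% and 9.31% of all genes were higher. All 3 positive libraries lay below all 3 negative libraries for 4 (duodenum), 6 (jejunum), 7 (ileum) and 2 (colon) of the 7, against 21.0%, 29.9%, 30.1% and 11.9% of all genes. The median log2 change of the 7 was -1.68, -2.78, -3.12 and -1.32 in that order, and that of all genes -0.16, -0.28, -0.27 and 0. In the colon, 3 of the 7 (*Lrmp*, *Trpm5* and *Pou2f3*) had an unadjusted p under 0.05 with edgeR, and DESeq2 called 2, *Lrmp* (adjusted p = 0.0433) and *Pou2f3* (0.0174). The duodenal count was 1 without Duodenum Venus-positive replicate 1, and the colonic count was 1 without Duodenum Venus-positive replicate 2, Colon Venus-negative replicate 3 or Colon Venus-positive replicate 3, each taken alone.

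**Figure D1:**
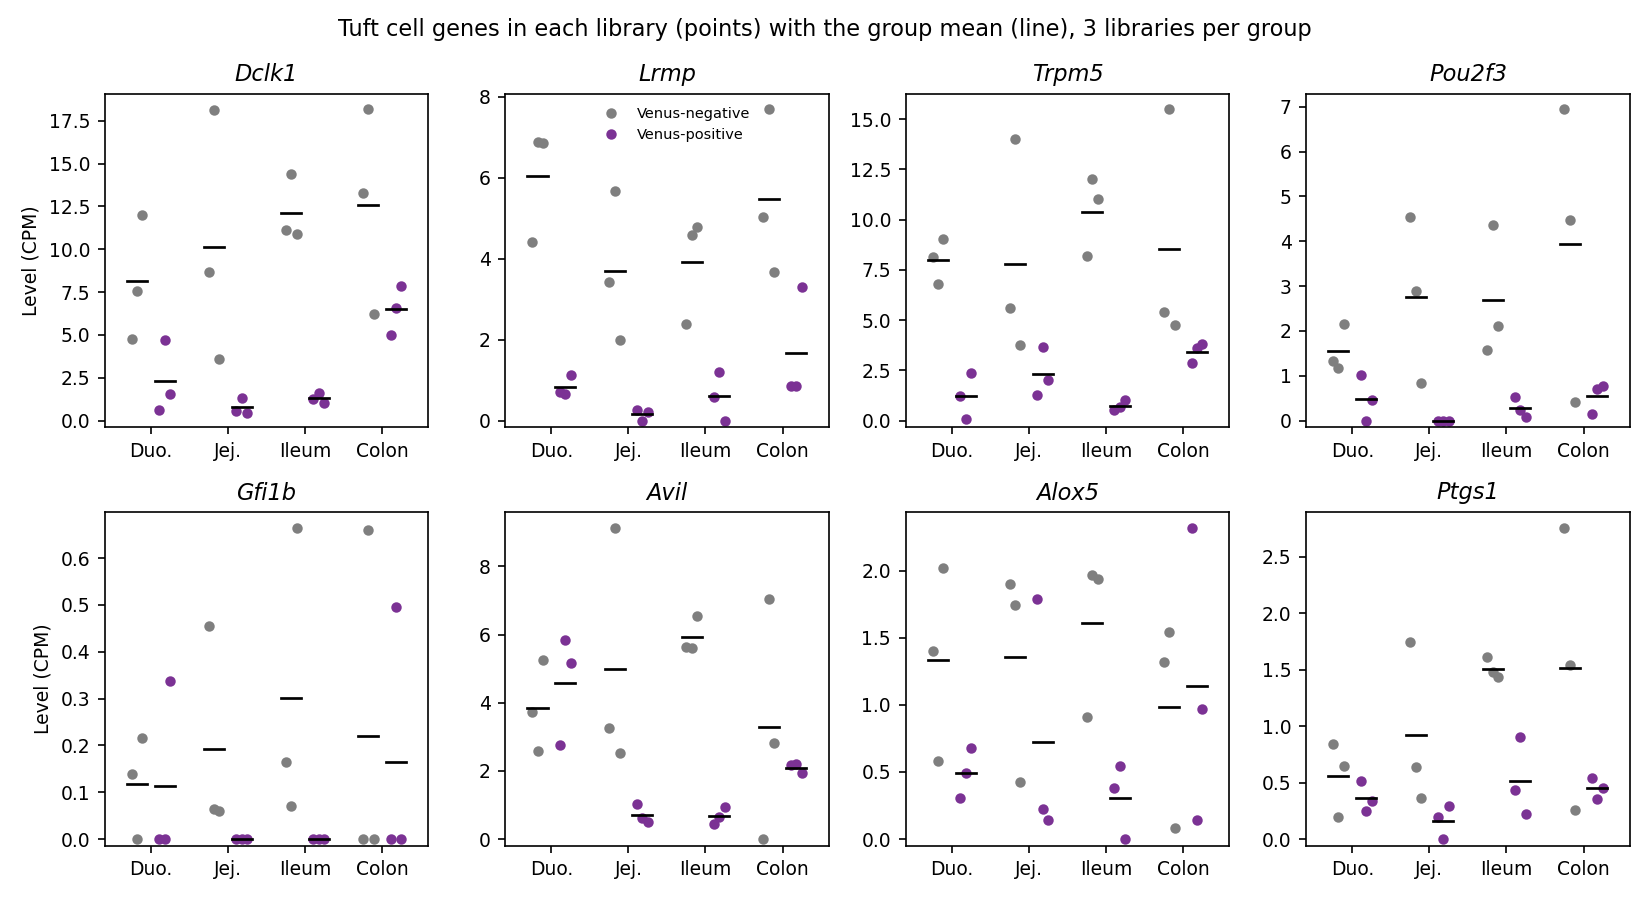
Level in CPM (linear axes) of the 8 tuft cell genes with any count, by region, in Venus-negative (grey) and Venus-positive (purple) cells. Points are libraries, 3 per group, and lines are group means; positive libraries from jejunum and ileum lie below the negative libraries for every gene drawn except *Alox5* in the jejunum.

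**Figure D2:**
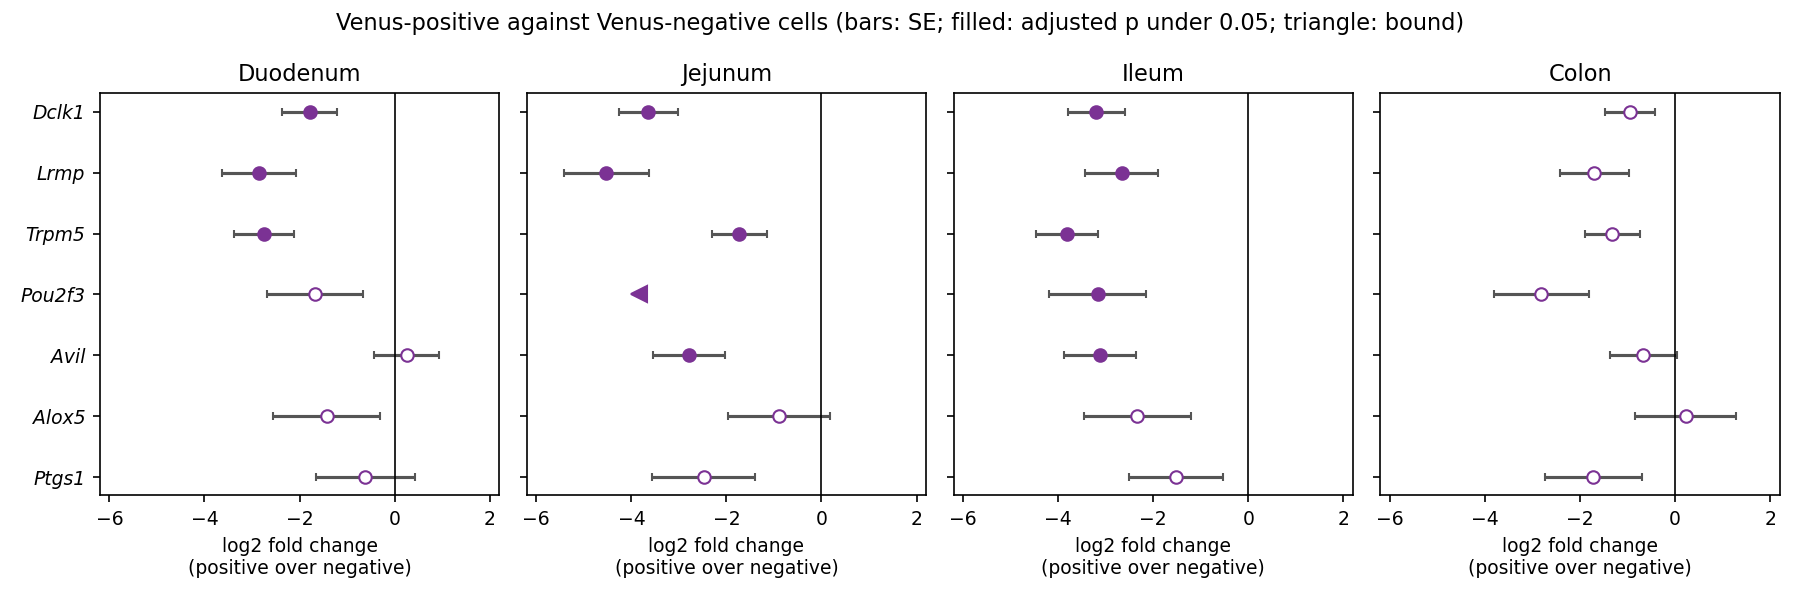
Log2 fold change of positive over negative cells in each region for the 7 genes tested, with SE as bars. Filled symbols have an adjusted p under 0.05 (3, 5, 5 and 0 genes from left to right), and the triangle marks the bound for *Pou2f3* in the jejunum, where all positive libraries were at 0. The jejunal points of *Lrmp* and *Ptgs1* are fitted values with a positive mean under the limit of 3 counts per library.

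*Pou2f3*, the POU-domain transcription factor on which tuft cells depend, separated the sorts most clearly in the jejunum. There the negative libraries held 4.55, 2.90 and 0.85 CPM and the positive libraries had no count at all, which makes the gene at least 14.4-fold higher in negative cells when the positive group is set at 3 counts per library (adjusted p = 0.000117). In the ileum the negative libraries held 1.57, 4.37 and 2.11 CPM and the positive ones 0.538, 0.240 and 0.0736 CPM, an 8.98-fold difference (log2 change -3.17, SE 1.02, adjusted p = 0.0156). The groups did not overlap in either of these regions. In the duodenum the values were 1.33, 1.17 and 2.16 CPM against 1.02, 0 and 0.450 CPM, again without overlap but with an adjusted p of 0.265. In the colon they were 6.95, 4.47 and 0.425 CPM against 0.155, 0.708 and 0.775 CPM, and replicate 3 of the negative cells lay among the positive libraries (adjusted p = 0.0598). The ileal call was lost without Ileum Venus-negative replicate 2, Venus-positive replicate 2 or Venus-positive replicate 3 (adjusted p = 0.0671, 0.0555 and 0.0714), and the colonic difference passed without Colon Venus-negative replicate 3 (0.0279) or Duodenum Venus-positive replicate 2 (0.0391). *Gfi1b*, a zinc-finger repressor that tuft cells share with erythroid cells and megakaryocytes, had 40 counts over the 12 negative libraries and 10 over the 12 positive ones. Its positive libraries were at 0 in the jejunum and ileum, while the negative ones held 0.455, 0.0643 and 0.0605 CPM and 0.165, 0.0705 and 0.665 CPM. It did not pass the filter. With no filter on low counts its mean difference over regions had an adjusted p of 0.0431 with edgeR and 0.146 with DESeq2, and no single region passed. The edgeR call rests on positive groups at 0 and supports no direction.

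*Trpm5*, the calcium-activated cation channel at the end of the taste-like cascade, fell in all 3 small intestinal regions. Negative duodenal libraries held 8.14, 6.81 and 9.01 CPM and positive ones 1.23, 0.0821 and 2.36 CPM. The difference was 6.71-fold (log2 change -2.75, SE 0.64, adjusted p = 0.00342). With single libraries left out, the log2 change ran from -3.67 to -2.16 and the call held in all 24 fits. In the jejunum the values were 5.62, 14.0 and 3.75 CPM against 1.28, 3.68 and 2.04 CPM, 3.31-fold (SE 0.59, adjusted p = 0.0173). The groups stayed apart there by a narrow margin, and the call was lost without Jejunum Venus-negative replicate 2, the highest library (log2 change -0.99, adjusted p = 0.206), or Venus-positive replicate 1 (0.0894). The ileum showed the widest gap, with 8.17, 12.0 and 11 CPM in negative and 0.538, 0.661 and 1.03 CPM in positive cells, 14.0-fold (SE 0.65, adjusted p = 3.20e-05). In the colon 5.39, 15.5 and 4.76 CPM stood against 2.86, 3.61 and 3.81 CPM; no positive library reached a negative one, yet the log2 change of -1.32 (SE 0.58) had an adjusted p of 0.134. Over all regions, 11 of the 12 negative libraries were above the highest positive library.

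*Dclk1*, which encodes a doublecortin-like kinase and is the gene most often used to stain tuft cells, fell in positive cells of all 3 small intestinal regions. The negative duodenal libraries held 4.77, 7.59 and 12.0 CPM and the positive ones 0.615, 4.68 and 1.58 CPM (3.46-fold, SE 0.57 on the log2 scale, adjusted p = 0.0286). Replicate 2 of the positive cells lay just under the lowest negative library. That call was lost without Duodenum Venus-negative replicate 2 or 3 or Venus-positive replicate 1 or 3 (adjusted p = 0.0550, 0.133, 0.148 and 0.0976). It was also lost with scaling by library size alone (0.0727). The duodenal log2 change of -1.79 ran from -2.90 to -1.36 with single libraries left out. In the jejunum, 8.65, 18.1 and 3.57 CPM stood against 0.575, 1.34 and 0.438 CPM, 12.5-fold (SE 0.62, adjusted p = 2.20e-05), and in the ileum 11.1, 14.4 and 10.9 CPM against 1.29, 1.62 and 1.03 CPM, 9.15-fold (SE 0.59, adjusted p = 8.45e-05). Neither region showed overlap. The colon did, with 13.3, 18.2 and 6.21 CPM in negative and 5.02, 6.58 and 7.88 CPM in positive cells (log2 change -0.95, SE 0.54, adjusted p = 0.265).

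*Lrmp*, the gene of an endoplasmic reticulum membrane protein that lymphoid cells also express, was lower in positive cells of every small intestinal region. Negative cells of the duodenum held 4.42, 6.87 and 6.85 CPM and positive cells 0.717, 0.657 and 1.13 CPM (7.26-fold, SE 0.78 on the log2 scale, adjusted p = 0.0111). In the jejunum 3.41, 5.66 and 2.0 CPM stood against 0.256, 0 and 0.219 CPM (adjusted p = 0.000144), with 4, 0 and 3 counts behind the positive values. Their mean lies under the limit of 3 counts per library (0.193 CPM), so no fold is given. In the ileum the values were 2.39, 4.58 and 4.77 CPM against 0.592, 1.20 and 0 CPM (6.34-fold, log2 change -2.66, SE 0.76, adjusted p = 0.00635). That log2 change ran from -3.60 to -2.13 with single libraries left out, and the call held in all 24 fits. The groups did not overlap in any region, the colon included, where 5.03, 7.69 and 3.66 CPM stood against 0.850, 0.849 and 3.29 CPM. The colonic log2 change was -1.70 (SE 0.72) with an adjusted p of 0.122, or 0.0410 without Colon Venus-positive replicate 3. The duodenal call was lost without Duodenum Venus-positive replicate 1 (0.0518).

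*Avil* encodes advillin, an actin-binding protein of the villin family found in the apical tuft, and it fell in the jejunum and ileum. Positive cells of the duodenum held 2.77, 5.83 and 5.18 CPM against 3.72, 2.59 and 5.26 CPM in negative cells (log2 change 0.25, SE 0.69, adjusted p = 0.843). In the jejunum 3.26, 9.14 and 2.54 CPM stood against 1.02, 0.614 and 0.510 CPM, a 6.88-fold difference (SE 0.76, adjusted p = 0.00364). In the ileum 5.65, 5.61 and 6.54 CPM stood against 0.431, 0.661 and 0.956 CPM, 8.70-fold (SE 0.76, adjusted p = 0.00172). Positive and negative libraries were fully apart in these last regions and intermixed in the duodenum. Colonic negative libraries held 0, 7.03 and 2.81 CPM against 2.16, 2.19 and 1.94 CPM in positive cells (log2 change -0.67, SE 0.70, adjusted p = 0.593). Colon Venus-negative replicate 1 had no *Avil* count while the same library held 111 counts of *Dclk1* and 45 of *Trpm5*. The colonic change turned to 0.43 without Colon Venus-negative replicate 2.

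*Alox5* and *Ptgs1*, which encode 5-lipoxygenase of leukotriene synthesis and cyclooxygenase-1 of prostaglandin synthesis, had the lowest levels of the 7 per kilobase of exon in negative cells and passed in no single region. *Alox5* ranged from 0.0850 to 2.02 CPM (median 1.47) over the 12 negative libraries and from 0 to 2.32 CPM (median 0.435) over the 12 positive ones. Its log2 change was -1.43 for duodenum, -0.90 for jejunum, -2.33 for ileum and 0.22 for colon (adjusted p from 0.0992 to 0.932). The highest value of all was in a positive library, replicate 1 of the colon, and replicate 1 of the jejunal positive cells held 1.79 CPM where the other jejunal positive libraries held 0.223 and 0.146 CPM. Its mean over regions passed without Jejunum Venus-positive replicate 1 (adjusted p = 0.0166), Colon Venus-negative replicate 3 (0.0454) or Colon Venus-positive replicate 1 (0.0446), and the colonic value changed sign without either of the latter, to -0.32 and -0.79. *Ptgs1* ranged from 0.195 to 2.76 CPM (median 1.14) in negative and from 0 to 0.901 CPM (median 0.346) in positive libraries. In the ileum its negative libraries held 1.61, 1.48 and 1.44 CPM and its positive ones 0.431, 0.901 and 0.221 CPM, without overlap, and the log2 change of -1.52 (SE 0.996) had an adjusted p of 0.234. In the jejunum, where the positive mean (0.161 CPM) lies under the limit of 3 counts per library and no fold is given, the adjusted p was 0.0649, and 0.0366 with DESeq2. *Il25*, the cytokine of the tuft cell circuit, gave no count in any library, which at 3 counts leaves room for up to 0.106 to 0.360 CPM per library.

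The i5 sequencing index was the 1 shared label that could mark a batch, and both indices occur in every group, in equal numbers in the positive and negative cells of a region. In the mean over regions, 6 alternatives kept every library, the index as a covariate among them. Each of the 7 genes tested stayed on its side of the threshold in all 6. Within an index 4 of the 8 groups hold 1 library, which is assumed to vary like the others. Within the 12 libraries of index D501rna, the mean log2 change was -2.37 for *Dclk1* and -2.59 for *Trpm5*, and within those of D502rna it was -2.44 and -1.96, all past the threshold. *Lrmp* passed within both (2.41e-07 and 0.000199) and *Ptgs1* in neither (0.0952 and 0.450), with no fold given for these genes since positive libraries of the jejunum or duodenum lay at or under the limit. *Pou2f3* passed within both (2.37e-06 and 0.000378). *Alox5* had -0.64 and -1.55 and passed in neither (0.641 and 0.145). *Avil* passed within D502rna (-1.58, adjusted p = 0.00118) and did not within D501rna (adjusted p = 0.768), where the only negative library of the colon had no *Avil* count, so that no mean fold is given.

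Whether the sort difference itself depended on the region was tested by a joint interaction over the 4 regions. It passed for 2 of the 7 genes, *Avil* (adjusted p = 0.0361) and *Dclk1* (0.0419), where 17.5% of all genes passed. The other 5 had adjusted p from 0.0831 (*Pou2f3*) to 0.801 (*Ptgs1*). Between pairs of regions, the *Avil* difference in the duodenum was above the jejunal one by 3.04 log2 units (SE 1.02, adjusted p = 0.0422) and above the ileal one by 3.37 (SE 1.02, adjusted p = 0.0301). The *Dclk1* difference was more negative in the jejunum than in the colon, by -2.70 (SE 0.80, adjusted p = 0.0302), a call lost with scaling by library size alone (0.0594). *Pou2f3* passed between duodenum and jejunum (adjusted p = 0.0220), a contrast that rests on the jejunal positive group at 0 and has no fold. These pairs called 14.6% (duodenum and jejunum), 10.5% (duodenum and ileum) and 9.69% (jejunum and colon) of all genes, and the pairs in which no tuft cell gene passed called 3.62% (duodenum and colon), 0.266% (jejunum and ileum) and 2.79% (ileum and colon). The count of 2 was close to the threshold. It fell to 0 without Duodenum Venus-negative replicate 1 or 2, Ileum Venus-negative replicate 1 or 2 or Colon Venus-positive replicate 2, and to 1 in 12 other leave-one-out fits. Of the pairs, *Avil* between duodenum and jejunum was lost in 13 of 24 such fits and between duodenum and ileum in 8, *Dclk1* in 7 and *Pou2f3* in 4.

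The negative cells showed no regional gradient that passed. Across regions, none of the 7 genes differed in negative cells (adjusted p from 0.726 to 0.972, 0 with an unadjusted p under 0.05, and 0 with DESeq2), where 12.3% of all genes did. Group means of *Dclk1* ran from 8.11 ± 3.63 CPM in the duodenum to 12.6 ± 6.01 CPM in the colon (SD, n = 3), and those of *Trpm5* from 7.78 ± 5.44 CPM in the jejunum to 10.4 ± 1.97 CPM in the ileum. *Lrmp* ran from 3.69 ± 1.85 CPM in the jejunum to 6.05 ± 1.41 CPM in the duodenum, and *Pou2f3* from 1.55 ± 0.53 CPM in the duodenum to 3.95 ± 3.29 CPM in the colon. The spread within a group was of the size of these differences. Per kilobase of exon, which allows levels of different genes to be compared, *Trpm5* (1.35 ± 0.58 CPM per kb, SD over the 12 negative libraries), *Avil* (1.33 ± 0.73) and *Lrmp* (1.17 ± 0.44) stood above *Pou2f3* (0.89 ± 0.63) and *Dclk1* (0.70 ± 0.31), whose exons are the longest at 15296 bases. *Alox5* (0.32 ± 0.16) and *Ptgs1* (0.29 ± 0.20) were lower, and *Gfi1b* was at 0.11 ± 0.14.

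The positive cells did differ between regions. Of the 7 genes, 5 passed the joint test in positive cells (*Dclk1*, adjusted p = 0.000364; *Avil*, 0.00509; *Lrmp*, 0.0172; *Trpm5*, 0.0199; *Pou2f3*, 0.0264), as did 43.3% of all genes. Colonic positive cells held the most *Dclk1*, at 6.49 ± 1.43 CPM against 2.29 ± 2.12 CPM in the duodenum, 1.31 ± 0.30 CPM in the ileum and 0.784 ± 0.485 CPM in the jejunum (SD, n = 3). Enteroendocrine markers stood higher there too, summing to 151 to 312 CPM in colonic positive libraries against 18.5 to 51.6 CPM in the other positive libraries, and their part in the colonic values was not tested. The colon exceeded the jejunum in *Dclk1* 8.06-fold (adjusted p = 0.000289) and the ileum 4.90-fold (0.00473). *Trpm5* was also highest there, at 3.43 ± 0.50 CPM, 4.64-fold above the ileum (0.743 ± 0.256 CPM, adjusted p = 0.0123), a call lost without Ileum Venus-positive replicate 2 (0.0520). *Lrmp* was higher in the colon than in the jejunum (1.66 ± 1.41 against 0.158 ± 0.138 CPM, adjusted p = 0.00374), with no fold given since the jejunal mean lies under the limit of 3 counts per library (0.193 CPM). This call was lost without Colon Venus-positive replicate 3 (0.0584). *Avil* was instead highest in duodenal positive cells, at 4.59 ± 1.61 CPM, 6.35-fold above the jejunum (0.716 ± 0.271 CPM, adjusted p = 0.00738) and 6.75-fold above the ileum (0.683 ± 0.263 CPM, adjusted p = 0.00829). *Lrmp* and *Pou2f3* also passed between duodenum and jejunum (0.0481 and 0.00980) and *Pou2f3* between jejunum and colon (0.00630), the latter gene against a group at 0. In positive cells the pairs duodenum and jejunum, duodenum and ileum, jejunum and colon, and ileum and colon called 33.2%, 25.5%, 33.9% and 21.7% of all genes. Duodenum and colon called 12.4% and jejunum and ileum 5.15%, with no tuft cell gene among them. The joint count was 2 when positive libraries were fitted alone and 3 without Jejunum Venus-positive replicate 2, and the *Lrmp* difference between duodenum and jejunum was lost in 16 of 24 leave-one-out fits. That of *Pou2f3* was lost without Duodenum Venus-positive replicate 1 (0.0734).

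Ordered over all 8 groups, the 4 negative groups held the 4 highest means of *Dclk1*, *Lrmp*, *Trpm5*, *Pou2f3* and *Ptgs1*. For *Avil* and *Alox5*, 3 of the top 4 were negative groups, the others being duodenal and colonic positive cells. Most neighbours in these orders overlapped. Of the 7 steps from one group to the next, 1 was free of overlap for *Dclk1* (colonic above duodenal positive cells), 1 for *Avil* (colonic above jejunal positive cells) and 2 for *Pou2f3* (duodenal negative above colonic positive cells, and ileal above jejunal positive cells). None was for *Lrmp*, *Trpm5*, *Alox5* and *Ptgs1*.

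Pearson's r of log2 CPM between pairs of the 7 genes was taken over the 24 libraries, which differ in sort, region and depth. It ran from 0.141 (*Avil* and *Ptgs1*) to 0.839 (*Lrmp* and *Pou2f3*), with a median of 0.605 over 21 pairs. After the group means were taken off, the range was -0.322 to 0.648 with a median of 0.227. As a description over 24 libraries, the gene nearest to *Dclk1* among all genes tested was *Sh2d7* (r = 0.940), an SH2-domain gene of the wider tuft cell list, followed by *Pygl* (0.938), glycogen phosphorylase of liver type, and *Kcnq1* (0.906), a potassium channel. The genes nearest to *Trpm5* were *Zfp157* (0.899), *Insm1* (0.887), an enteroendocrine transcription factor, and *Tmem186* (0.875). Nearest to *Lrmp* were *Cep128* (0.930), *Psmg4* (0.928) and *Snrpg* (0.925), to *Pou2f3* *Cenpe* (0.913), *Cacna1c* (0.908) and *Pex26* (0.898), and to *Avil* *Rrp8* (0.891), *Tigd2* (0.890) and *Spdl1* (0.871). *Alox5* had *Zfp760* (0.741), *Med29* (0.740) and *Grik5* (0.718) and *Ptgs1* had *Polr3b* (0.841), *Pigb* (0.836) and *Esf1* (0.836). *Sh2d7* was the 1 neighbour of the 21 that belongs to the wider tuft cell list.

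A further list of 39 tuft cell genes was measured in the same fit. Of the 33 that were tested, 22 were lower and 5 higher in positive cells averaged over the regions, and by region 7, 18, 14 and 2 were lower and 3, 4, 5 and 2 higher in duodenum, jejunum, ileum and colon, to be read against the shares of all genes above. Of the 33, 11 reached 10 counts in 3 or more negative but under 3 positive libraries and so passed the filter through the group where they are higher; among the other 22, 13 were lower and 5 higher in the mean and 5, 12, 12 and 1 lower by region. The 11 are *Hmx2*, *Hmx3*, *Gng13*, *Plcb2*, *Ffar3*, *Alox5ap*, *Ltc4s*, *Bmx*, *Sh2d6*, *Il17rb* and *Cd300lf*. Their calls support no direction, and the counts by role below are to be read with that limit. The counts of lower genes fell to 3, 11, 9 and 0 when single libraries were left out, without Duodenum Venus-positive replicate 3, Jejunum Venus-positive replicate 2, Ileum Venus-negative or Venus-positive replicate 3 and Colon Venus-positive replicate 1, and the duodenal count was 2 with scaling by library size alone. Median log2 changes were -1.02, -2.89, -2.21 and -0.58 by region and -1.78 for the mean, or -0.99, -2.06, -1.63, -0.58 and -1.60 with genes whose group was at 0 put at their bound. Kinases and adaptors of antigen-receptor type, which tuft cells share with leukocytes, were lower in 7 of 8 tested. Of the 8, *Bmx* and *Sh2d6* are among the 11. By region 2, 6, 4 and 0 of the 8 were lower, and 1 was higher in the ileum. With groups under the limit put at it, *Sh2d7* fell 7.69-fold (adjusted p = 2.14e-08) and *Vav1*, a guanine nucleotide exchange factor, 4.99-fold (6.46e-08), with *Vav1* at 3.95 ± 1.76 against 0.0672 ± 0.0736 CPM in the jejunum. The transcription factors were called lower in 4 of 4 tested, a count to be read for *Sox9* and *Spib* alone. *Sox9* reached 10 counts in all 12 negative and all 12 positive libraries, and the part of other cells in its call was not tested. The remaining transcription factors, *Hmx2* and *Hmx3*, reached 10 counts in no positive library and lay under the limit in at least 1 sort of every region. Their calls (adjusted p = 0.00240 and 0.00248) are therefore given without a fold and support no direction. Most counts of a negative group lay in a single library. For *Hmx2* these were 39 of 42 in the colon and 21 of 23 in the ileum. For *Hmx3* they were 45 of 61 in the ileum and 43 of 55 in the duodenum.

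The counts by role stand beside 32.9% of all genes lower and 25.0% higher in the mean. Of 9 chemosensory genes tested, 6 were lower and 2 higher. The 9 include *Gng13*, *Plcb2* and *Ffar3*, which are among the 11 that passed the filter through the negative cells. *Plcb2*, the phospholipase of taste transduction, held 3.35 ± 1.49 CPM in negative and 0.156 ± 0.185 CPM in positive cells of the ileum. *Gng13*, its G protein gamma subunit, was at 0 in all positive libraries of the duodenum and jejunum. The calls of *Plcb2* (adjusted p = 3.80e-06) and *Gng13* (0.000555) in the mean support no direction. The higher ones were the broadly expressed calcium channels *Itpr2* (2.27-fold) and *Itpr3* (1.63-fold). In eicosanoid synthesis 3 of 4 were lower, and *Alox5ap* and *Ltc4s* of the 4 are among the 11. *Alox5ap*, which presents substrate to 5-lipoxygenase, was 1 of the 2 further genes counted as lower in the colon (1.61 ± 1.29 against 0.0708 ± 0.123 CPM). Its calls in the mean (adjusted p = 4.97e-06) and in the colon (0.0246) support no direction. *Hpgds*, prostaglandin D synthase, fell 5.04-fold at the limit (3.77e-06). Of 3 tested genes of the type 2 cytokine circuit none was lower, and the receptor chains *Il4ra* (1.96-fold, adjusted p = 1.76e-05) and *Il13ra1* (1.47-fold, 0.00682), which other epithelial cells express as well, were higher in positive cells. Among surface and cytoskeletal genes, 2 of 5 were lower. *Cd300lf*, which is among the 11, was at 0 in jejunal positive cells, and its call (adjusted p = 0.0184) supports no direction. *Espn*, an actin-bundling protein of microvilli, was 5.60-fold higher (1.06e-11), from 20.3 ± 8.24 to 196 ± 23.0 CPM in the jejunum. *Chat*, for acetylcholine synthesis, did not pass the filter and had at most 19 counts in a library. *Tas1r1* was at 0 in all libraries.

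**Figure D3:**
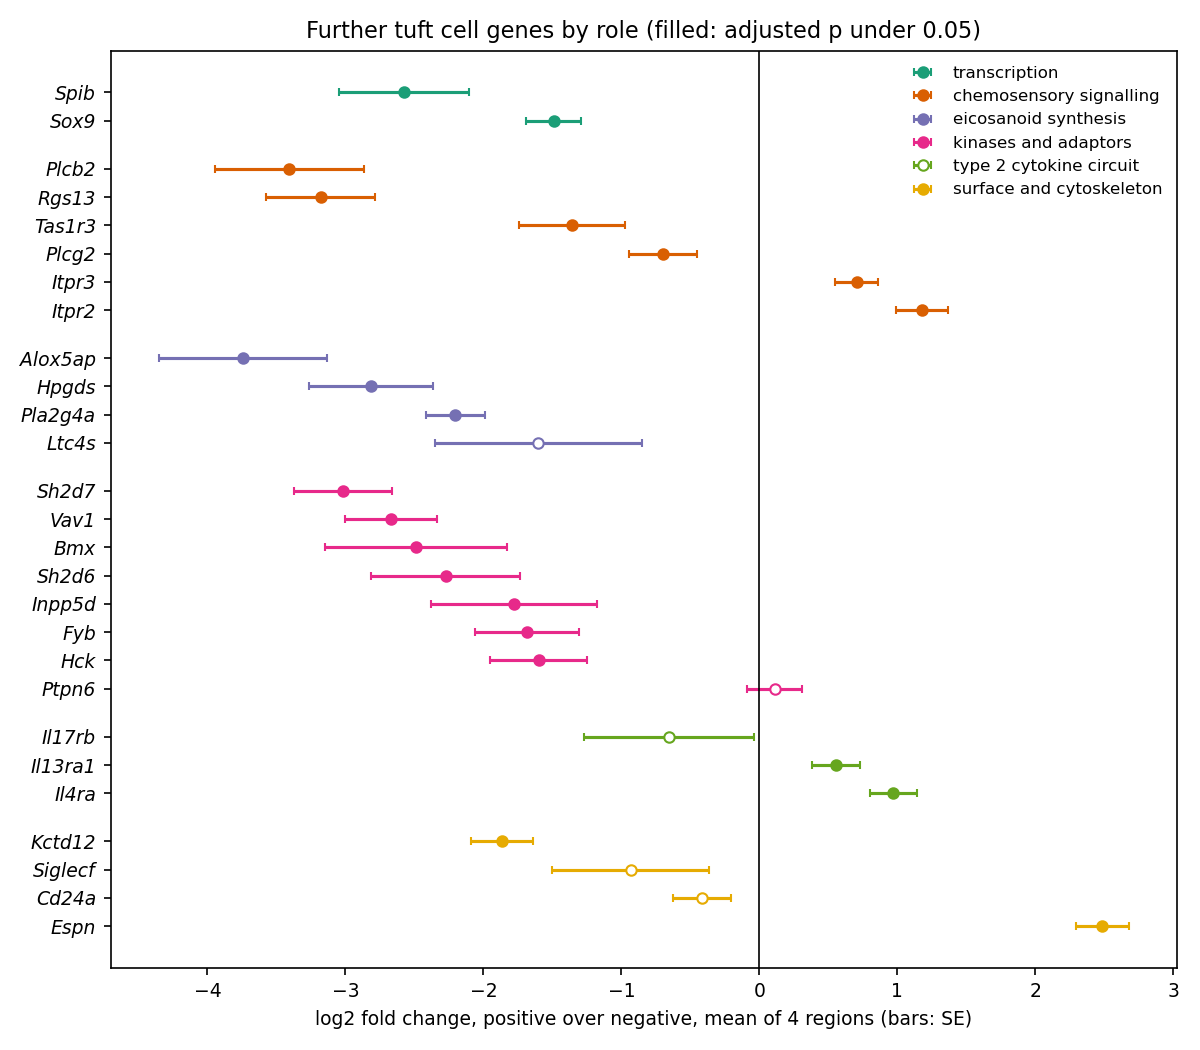
Mean log2 fold change over the 4 regions, positive over negative cells, with SE as bars, for the further tuft cell genes without a group at 0, by role. Filled symbols have an adjusted p under 0.05; *Espn*, *Il4ra*, *Il13ra1*, *Itpr2* and *Itpr3* lie to the right of 0 and the other filled symbols to the left. Values are as fitted, with no group put at the limit. Genes that passed the filter through the negative cells are included, and their calls support no direction.

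Markers of other cells were set beside these values. The 9 tuft cell genes summed to 13.6 to 56.5 CPM (median 33.2) in negative and 3.31 to 19.1 CPM (median 6.51) in positive libraries. Of the 6 leukocyte genes, which include *Ptprc* (CD45), 4 were tested and none passed in any region; their sum ran from 0.607 to 8.82 CPM (median 2.77) in negative and 0.307 to 9.55 CPM (median 1.81) in positive libraries. In the duodenum it was 1.68 to 3.18 against 0.307 to 0.903 CPM. Of B cell markers, 2 of 2 tested were lower in the jejunum, *Cd79b* (adjusted p = 0.0409) and *Ms4a1* (0.0494), where their sum was 0.683 to 2.57 CPM in negative and 0 to 0.0729 CPM in positive libraries; none passed in another region and 1 was lower in the mean. Of 3 T cell and ILC markers tested, none passed in a region and *Cd8a* was lower in the mean (0.0332). Of 4 myeloid markers tested, 0, 1, 2 and 0 were lower by region and 2 in the mean. *Lyz2*, a lysozyme gene listed here as myeloid, was higher in the duodenum, ileum and mean. The myeloid sum was 11 to 29.7 CPM in duodenal positive and 2.10 to 7.57 CPM in duodenal negative libraries. Paneth cell markers, another lysozyme gene among them, summed to 15650 to 43412 CPM and 157 to 615 CPM in the same libraries. The part of Paneth cells in the *Lyz2* and myeloid values was not tested. The part of these immune markers in the results for *Lrmp*, *Alox5*, *Ptgs1* and the adaptors was not tested. Of 2 megakaryocyte markers tested, 1 was higher in the jejunum and 2 in the colon. Megakaryocyte markers, which bear on *Gfi1b* and *Ptgs1*, summed to at most 7.41 CPM in negative and 7.99 CPM in positive libraries, and *Ppbp* was at 0 throughout. Enteroendocrine markers fell with the tuft cell genes, in 8, 8, 7 and 5 of 8 by region, from a sum of 211 to 1567 CPM in negative to 18.5 to 312 CPM in positive libraries. Stem and proliferating cell markers fell in 1, 5, 5 and 3 of 5. All 4 goblet cell markers rose in each region. All 4 Paneth cell markers rose in each small intestinal region and 0 in the colon, and 1, 4, 4 and 2 of 4 enterocyte markers rose by region. Of 4 fibroblast and muscle markers tested, 3 were lower in the ileum and in the mean and none in another region, and their ileal sum was 0.423 to 15.9 CPM in negative and 0 to 0.961 CPM in positive libraries. Of 5 general epithelial markers, 4, 4, 4 and 2 rose by region, and 1 was lower in the jejunum and 1 in the ileum. Their sum was 1901 to 4886 CPM in positive and 924 to 1644 CPM in negative libraries, without overlap. The part of these other cells in the level of a tuft cell gene was not tested.

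**Figure D4:**
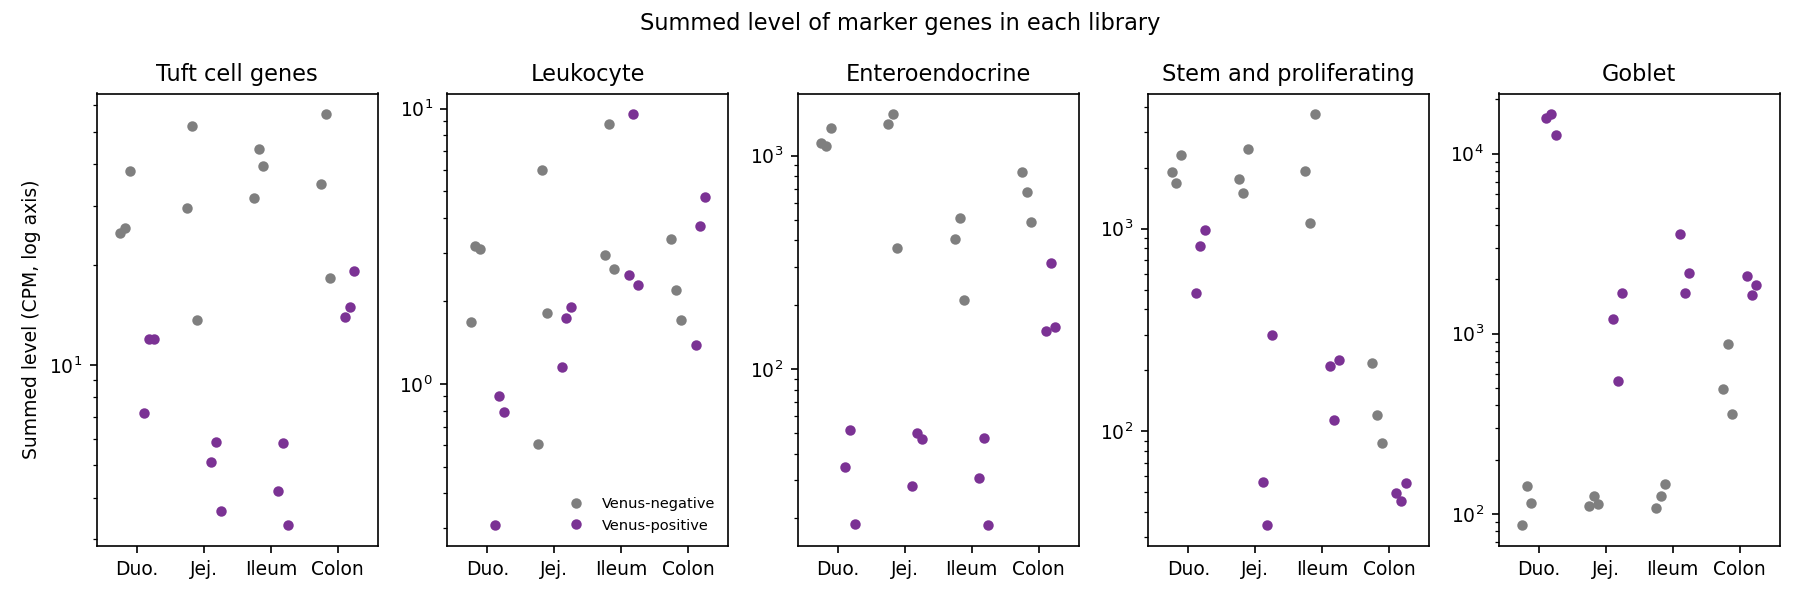
Summed level (CPM, log axis) in each library of the 9 tuft cell genes and of the leukocyte, enteroendocrine, stem and proliferating, and goblet cell markers, by region and sort. Tuft cell genes are lower in positive libraries of every small intestinal region, the leukocyte sums overlap except in the duodenum, and the goblet cell sums are higher in positive libraries.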

How the data were processed

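The authors deposited raw counts per gene, made with CASAVA and STAR against GRCm38 according to the paper and the submitters' processing notes (STAR 2.5.1); the annotation release and the strand setting are not given in the sources used here. Libraries were prepared from sorted cells with a stranded total RNA kit for low input and sequenced single-end. In all, 4 summary lines (ambiguous, multimapping, no feature, unmapped) equal to 39.4% to 75.8% of the reads were left out of library sizes and tests. Counts were tested with edgeR 4.0.16 (quasi-likelihood, TMM factors 0.702 to 1.55, limma 3.58.1, R 4.3.3) in 1 model of 8 groups and 24 libraries, after the filterByExpr filter (minimum count 10, minimum total 15), which left 15044 genes. P-values were adjusted by Benjamini-Hochberg across the 15044 genes, and 0.05 was the threshold. The SE of a log2 change is its size divided by the root of F. For folds, a group whose mean lay under 3 counts per library was put at that limit. Exon lengths came from GENCODE M21. Separate cultures or animals are not labelled per library, so p-values measure the spread between these libraries. The genes named were the 9 tuft cell genes and, of the further list, up to 2 genes per role past the threshold in the mean over regions with the largest absolute log2 change, with the 3 nearest genes of each member; *Itpr2*, *Itpr3*, *Chat*, *Tas1r1*, *Cd79b*, *Ms4a1*, *Cd8a* and *Lyz2* fall outside this rule and were named after their values were seen. The members and lists were chosen with earlier results of these data known. The procedure was run on simulated data with the same spread for every gene, set below the common dispersion fitted here (0.185). That run does not show how well scarce genes such as these are recovered. Alternatives were DESeq2 1.42.0, RLE or library size scaling, other filters, the i5 index as covariate, only the libraries compared and each library left out. Each i5 index alone was chosen after seeing the data.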

Additional observations from a re-analysis of the deposited data

Results flagged for a closer look

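The difference between positive and negative cells varied with the region for *Avil* and *Dclk1* in a joint test over 4 regions and for *Pou2f3* between 1 pair of regions (edgeR, adjusted p-values). The joint test called 2 of 7 members and 17.5% of all genes, and the pairs below called 14.6% (duodenum and jejunum), 10.5% (duodenum and ileum) and 9.69% (jejunum and colon) of all genes. Among the 24 fits that leave out 1 library, the joint count was 0 in 5, 1 in 12 and 3 in 1. For *Avil* the joint test over 4 regions gave 0.0361, with 0.0422 between duodenum and jejunum and 0.0301 between duodenum and ileum. The duodenal log2 change was 0.25 and those of the jejunum and ileum -2.78 and -3.12. The first of these pairs was lost in 13 of the 24 fits that leave out 1 library and the second in 8. For *Dclk1* the joint test gave 0.0419 and the pair jejunum and colon 0.0302, with log2 changes of -3.65 and -0.95, and the pair was lost in 7 of 24 such fits and with scaling by library size alone (0.0594). For *Pou2f3* the joint test did not pass (0.0831), and the pair duodenum and jejunum gave 0.0220, with jejunal positive cells at 0 in all 3 libraries, and it was lost in 4 of 24.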

How the results depend on the processing

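No paired analysis was run because the labels give no mouse or replicate number. Over 71 results and 2211 alternative values, 2065 kept their direction and side of the threshold (counts within 1.5 times), 66 no longer passed, 11 passed newly, 4 changed sign and 65 moved. Changes of sign were *Avil* averaged over regions within i5 index D501rna (0.46, a fitted value that includes a colonic negative group of 1 library at 0 and so gives no direction), *Avil* in the colon without Colon Venus-negative replicate 2 (0.43) and *Alox5* in the colon without Colon Venus-negative replicate 3 (-0.32) or Venus-positive replicate 1 (-0.79). Leaving out 1 library moved these 2 colonic values over -1.22 to 0.43 (*Avil*) and -0.79 to 0.72 (*Alox5*). The cause was not tested.

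Of the 9 genes, the number lower in the colon was 2 with DESeq2 and 1 with no filter or with protein-coding genes alone. Region dependence counted 1 gene with RLE scaling and 4 with no filter, and regional differences in positive cells counted 2 with only those libraries. For the further list, DESeq2 gave 4 lower and 1 higher in the colon, RLE 1 higher in the colon and protein-coding genes alone 1 higher in the colon. Scaling by library size alone gave 2 lower in the duodenum and 3 higher in the ileum. With at least 10 counts in every library, 2, 3, 3 and 0 were lower by region and 4 in the mean, and 2 were higher in the ileum and 1 in the colon; no member passed that filter. Within D502rna 14 were lower in the mean. Library size scaling moved the median of all genes in the duodenum from -0.162 to 0.270, with 350 lower and 2267 higher genes in place of 1216 and 1336.

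With each library left out, the genes lower numbered 1 to 3 (duodenum), 4 to 5 (jejunum), 4 to 5 (ileum), 0 to 1 (colon) and 6 to 7 (mean). Of the further list 3 to 8, 11 to 20, 9 to 15, 0 to 2 and 20 to 24 were lower and 1 to 4, 3 to 5, 2 to 5, 1 to 2 and 5 to 5 higher. The jejunal count was 11 without Jejunum Venus-positive replicate 2, the ileal count 9 without Ileum Venus-negative or Venus-positive replicate 3, the duodenal count 3 without Duodenum Venus-positive replicate 3 and the colonic count 0 without Colon Venus-positive replicate 1. Region dependence counted 0 to 3, negative cells 0 and positive cells 3 to 5. Fitting only the libraries compared was not run for the mean and for region dependence, which use all libraries. Median counts of 11 or less per library limit *Pou2f3*, *Alox5*, *Ptgs1*, *Gfi1b* and *Il25*.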
